A study of Arabidopsis thaliana with 42 samples.

Results

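The 12 RNA-seq libraries of the series were set against each other as sides of 6: the 3 libraries of ddm1nrpd1 and the 3 of ddm1nrpe1, which lack a polymerase of RNA-directed DNA methylation, against the 3 of ddm1 and the 3 of ddm1cmt2, in which both polymerases are intact. The other 30 of the 42 samples hold other assays and are not analysed here. A locus was said to separate when each of the 6 libraries on one side lay above each of the 6 on the other, in CPM after TMM scaling (reads scaled to a common library size). Of the 25069 loci in the table, 4580 separated: 2516 were higher in the polymerase mutants and 2064 were lower. All but 12 of them passed the filter on low counts, and 24839 loci were tested.

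All libraries come from 2-week-old Arabidopsis thaliana seedlings, raised on half-strength MS plates (0.6% agar, 1.5% sucrose) at 22 °C in days of 16 h light and 8 h dark, after 7 days of cold at 4 °C. Every group carries a ddm1 mutation, the controls included; no wild-type library is used here. ddm1nrpd1 adds loss of NRPD1, ddm1nrpe1 (npre1 in the labels) adds loss of NRPE1, and ddm1cmt2 adds loss of CMT2. The labels give no alleles for these libraries, no hour of harvest, and nothing on whether the 3 samples of a genotype came from separate plants or plates, so p-values measure the spread between samples, which may be technical. Each side holds only 2 genotypes, so loss of a polymerase and other features that the lines of a side share cannot be told apart.

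DDM1 is a chromatin remodeller that DNA and histone methylation of heterochromatic transposons depend on. RNA polymerase IV, with NRPD1 as its largest subunit, makes the precursors of small RNAs, and RNA polymerase V, with NRPE1 as its largest subunit, makes the scaffold transcripts at which those small RNAs direct new DNA methylation. CMT2 methylates cytosines outside CG sites in heterochromatin by another route, without small RNAs. Single genes next to transposons or repeats are the classical places where RNA-directed DNA methylation (RdDM) holds a gene silent in this plant.

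Total counts ran from 7.84 to 18.1 M in the intact libraries and from 14.9 to 24.8 M in the polymerase mutants, so depth moves with the side. After all libraries had been thinned to the smallest total, 2282 loci separated as higher and 1748 as lower, among them 2086 and 1560 of the original ones. Counting was not stated to use strand, and how reads with several possible origins were counted is not given, which bears most on transposons, pseudogenes and close gene copies.

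The mutated genes were read first, and their transcripts do not mark the lesions. NRPD1 (AT1G63020) had 15, 13.8 and 13.7 CPM in ddm1nrpd1, 5.56, 4.13 and 3.77 in ddm1nrpe1, and 3.73 to 6.63 in the intact libraries. NRPE1 (AT2G40030) had 55.7, 55.1 and 65.2 CPM in ddm1nrpe1, 5.93, 8.73 and 9.14 in ddm1nrpd1, and 10.3 to 14.1 in the intact libraries. Each polymerase gene was thus highest in the libraries labelled as its own mutant, and neither separated by side. Counts over a whole gene do not show where a lesion lies, so these values do not check the labels. CMT2 (AT4G19020) separated as lower, with 16.2 to 23.1 CPM in the polymerase mutants against 25.9 to 35.2, a log2 fold change of -0.65 ± 0.08 (SE, adjusted p = 5.9e-06). DDM1 (AT5G66750) overlapped, at 10.5 to 18.1 against 11.7 to 16.6 CPM (-0.06 ± 0.11, adjusted p = 0.65).

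Across all tested loci, edgeR's quasi-likelihood test called 14563 (58.6%) at an adjusted p under 0.05, of which 7209 (29%) were higher in the polymerase mutants and 7354 (29.6%) lower. Separation was stricter: 2506 tested loci were higher (10.1%) and 2062 lower (8.3%), or 18.4% together. The test and the separation read the same counts, so neither is independent support for the other. Of the calls, 34.7% of the higher and 28% of the lower also separated. With counts divided by the column sum alone, without TMM factors, 2880 loci separated as higher and 1536 as lower. A wide margin was rarer and went mostly one way. A distance of at least 1 log2 unit between the nearest libraries of the 2 sides, on log2 CPM with a prior count of 2, was found at 448 higher loci (1.8%) and 109 lower ones (0.439%).

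Transposon and pseudogene loci separated mainly upwards in the polymerase mutants. Of 1903 transposable element (TE) loci tested, 470 (24.7%) separated as higher and 118 (6.2%) as lower. Among 2097 pseudogene loci the counts were 442 (21.1%) and 126 (6.01%). Protein-coding loci were even in both directions, with 1559 (7.71%) higher and 1685 (8.34%) lower of 20211. The sizes differed as well: the median log2 fold change of the separating higher loci was 2.38 for TE, 2.03 for pseudogene and 0.75 for protein-coding loci. With libraries thinned to one depth, 22.3% of TE and 19.5% of pseudogene loci separated as higher, against 7% of protein-coding loci.

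**Figure D1:**
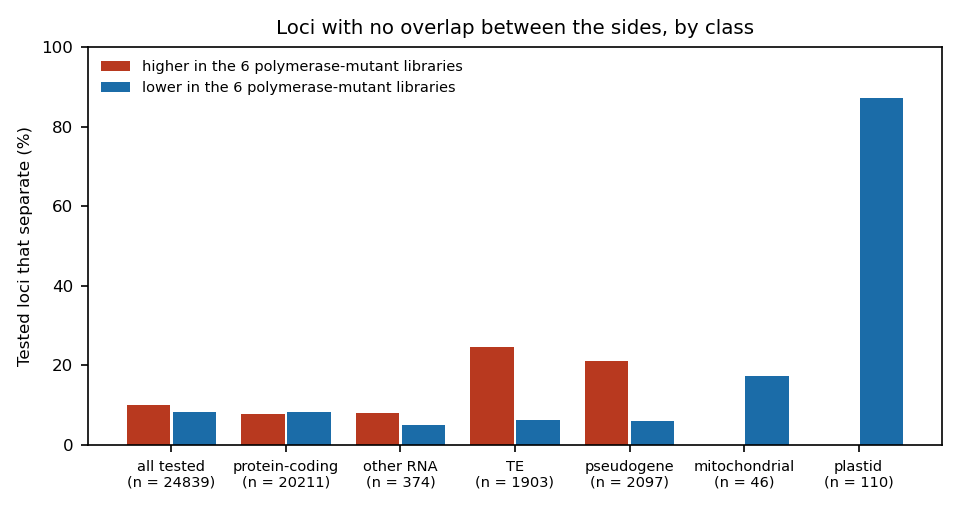
Share of tested loci, in percent, whose 6 polymerase-mutant libraries all lie above (red) or all below (blue) the 6 polymerase-intact libraries, for each locus class with its number of tested loci. TE and pseudogene loci stand at 24.7% and 21.1% higher, protein-coding loci near 8% in both directions, and plastid loci at 87.3% lower with none higher.

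The TE loci that separated as higher were spread over the genome and over levels. On the 5 chromosomes, 21.9% to 29% of the TE loci tested were higher. When TE loci were ranked by their mean level and cut into 3 equal parts, 29%, 25.9% and 19.2% of the low, middle and high part separated as higher. The gain at single loci did not amount to a clear gain in the transposon share of all reads. TE loci took 6.14% ± 0.666 of counts in the polymerase mutants and 5.5% ± 0.678 in the intact lines (SD, n = 6, two-sided exact permutation p = 0.12). Between ddm1nrpd1 and ddm1 alone the difference was -0.421 percentage points, and between ddm1nrpe1 and ddm1cmt2 it was 1.7. Pseudogene loci took 6.81% ± 0.795 against 5.64% ± 0.796 (n = 6, exact permutation p = 0.035). For both classes the permutation treats the 6 libraries of a side as exchangeable, though they come from 2 genotypes. Its p does not measure replication of polymerase loss. The pseudogene difference was -0.0896 between ddm1nrpd1 and ddm1 and 2.44 between ddm1nrpe1 and ddm1cmt2. The pooled p rose to between 0.0519 and 0.0671 when any 1 library of ddm1cmt2 or ddm1nrpe1, or replicate 1 of ddm1nrpd1, was left out.

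The TE locus with the widest margin, AT3TE51895 on chromosome 3, is one of a group of loci with like profiles. AT3TE51895 had 141, 167 and 191 CPM as lowest, median and highest value in the polymerase mutants, against 1.28, 3 and 3.53 in the intact lines. Its log2 fold change was 5.87 ± 0.16 (adjusted p = 1.4e-12). AT3TE51900 had 118, 175 and 416 CPM against 1.83, 2.27 and 3.75 (6.46 ± 0.23), and within the mutants it was lower in ddm1nrpd1 than in ddm1nrpe1 (-1.11, adjusted p = 0.0027). The pseudogene loci AT3G30844 and AT3G30843 lead their class and carry nearly the same profiles. AT3G30844 stood at 170, 203 and 239 CPM against 1.28, 3.5 and 3.95 (5.99 ± 0.18), and no library differed from AT3TE51895 by more than 0.399 log2 units. AT3G30843 stood at 138, 208 and 486 CPM against 2.12, 2.81 and 4.23 (6.41 ± 0.22), within 0.446 of AT3TE51900. Such pairs may count the same reads under a transposon and a pseudogene identifier, so they are not separate observations.

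These pseudogenes belong to a run of 4 neighbouring identifiers that all separated. The run begins with ABCG38 (AT3G30842), a transporter of the ABCG family, which had 7.17, 10.2 and 14.1 CPM in the polymerase mutants against 0.439, 0.583 and 1.11 (3.96 ± 0.17, adjusted p = 2.4e-11). The pseudogene AT3G30846, at its other end, had 1.87 to 4.74 CPM against 0 to 1 (3.23 ± 0.36). ABCG38 and AT3G30843 were both lower in ddm1nrpd1 than in ddm1nrpe1, by -0.71 and -1.09 (adjusted p = 0.0020 and 0.0026), while AT3G30844 did not pass that test.

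On chromosome 1, the protein-coding gene PUM9 (AT1G35730), a Pumilio-family RNA-binding protein, separated by the widest margin of any nuclear gene outside the TE and pseudogene classes. It had 18.9, 26.9 and 34.7 CPM in the polymerase mutants and 0.505, 0.781 and 1.15 in the intact lines, a log2 fold change of 5.001 ± 0.17 (adjusted p = 1.1e-12). The neighbouring pseudogene AT1G35735 was at 37.9, 54.1 and 78.9 CPM against 0.274, 0.561 and 1.1 (6.43 ± 0.29). With the prior count added, the nearest libraries of the 2 sides were 14.8-fold apart for PUM9 and 30.8-fold apart for AT1G35735. For PUM9 the intact genotypes did not differ past the test (-0.54, adjusted p = 0.32), and ddm1nrpd1 was slightly lower than ddm1nrpe1 (-0.43, adjusted p = 0.033).

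SDC (AT2G17690) encodes an F-box protein and is the classical gene held silent by non-CG methylation of repeats in its promoter. It was measurable in the intact lines, with 17.4, 24.9 and 28.8 CPM, and stood at 408, 549 and 734 CPM in the polymerase mutants (4.48 ± 0.15, adjusted p = 6.6e-12). Loss of CMT2 in ddm1 went with no difference past the test (0.03, adjusted p = 0.92), and the polymerase mutants did not differ from each other past it either (-0.29, adjusted p = 0.22). The 4 genotypes thus lay at 2 levels that do not overlap.

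**Figure D2:**
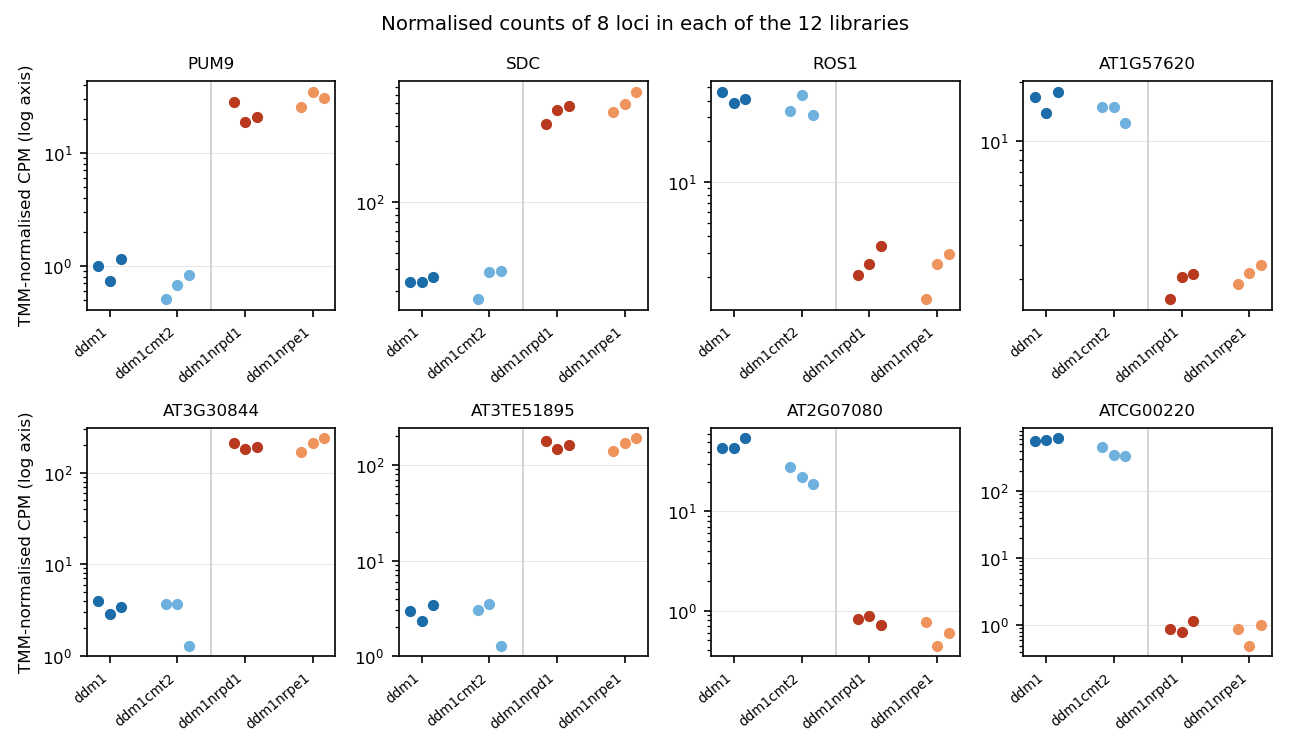
TMM-normalised CPM (log axes with their own ranges) of 8 loci in each library, by genotype, with polymerase-intact genotypes in blue left of the line and polymerase mutants in red and orange right of it. Each point is 1 library. PUM9, SDC, AT3G30844 and AT3TE51895 lie higher in all 6 mutant libraries, and ROS1, AT1G57620, AT2G07080 and ATCG00220 lie lower, and no mutant library overlaps an intact one.

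Further nuclear loci rose together in both polymerase mutants. HCS2 (AT1G37150), named for holocarboxylase synthetase, an enzyme that attaches biotin to carboxylases, was at 9.99, 22.9 and 31.6 CPM against 0.505, 0.795 and 1.35 (4.68 ± 0.26). The protein-coding locus AT5G35120 was at 28.1, 34.8 and 48.3 CPM against 2.07, 2.44 and 3.94 (3.73 ± 0.18). AT5G34871, which RefSeq lists as a non-coding RNA, was at 5.38, 8.93 and 14.1 CPM against 0.123, 0.415 and 0.769 (4.38 ± 0.22). Within the mutants, HCS2 and AT5G34871 were lower in ddm1nrpd1 than in ddm1nrpe1 (-0.84 and -0.98, adjusted p = 0.015 and 0.0008), and AT5G35120 did not differ past the test (0.01, adjusted p = 0.98).

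GRP19 (AT5G07550) belongs to the glycine-rich oleosin-type proteins known from the tapetum and the pollen coat. It had 87.8, 114 and 155 CPM in the polymerase mutants and 0.865, 4.79 and 11.1 in the intact lines (4.67 ± 0.40, adjusted p = 1.0e-05). It opened a run of 6 neighbouring protein-coding identifiers on chromosome 5 that all separated as higher. GRP20 (AT5G07560) followed with 9.79 to 14.4 CPM against 1.15 to 3.1 (2.48 ± 0.17), then AT5G07570 with 88.2 to 145 against 31.8 to 54.1 (1.50 ± 0.09). The differences of AT5G07571, AT5G07572 and AT5G07580 were 1.25 ± 0.20, 1.24 ± 0.20 and 1.25 ± 0.09. The run was chosen after its values were seen, and overlapping transcripts there cannot be told apart without strand. Of 8 listed pollen, flower and seed genes 3 were tested, AG and SEP3 (floral organ identity factors) among them, 2 called higher and 1 lower, and none separated. The lower call, GEX2, was lost under 12 alternatives, that of SEP3 with sides in place of genotypes in the model, and AG moved from 1.70 to 4.21 on the log2 scale without ddm1 replicate 1. The 3 genes together were at 8.5 to 12.1 CPM in the mutants and 3.08 to 14.1 in the intact lines, and their part in the result was not tested.

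Runs of at least 4 neighbouring separating identifiers numbered 18 upwards, with 91 loci, and 2 downwards, with 8 loci. Of the higher runs, 11 of 18 consisted of pseudogenes alone and 3 of protein-coding genes alone. The longest, of 9 pseudogenes, ran from AT1G40630 to AT1G41700, with log2 fold changes from 1.67 to 4.23. The other TE loci with the widest margins upwards lie on chromosome 1. AT1TE43225 was at 17.5, 29.9 and 40.6 CPM against 0.0913, 0.211 and 0.37 (6.78 ± 0.38). AT1TE44720 was at 47.5, 55 and 62.5 CPM against 1.11, 1.55 and 2.83 (4.92 ± 0.16), and AT1TE45560 at 23.3, 27.5 and 30.9 against 0.487, 0.983 and 1.48 (4.76 ± 0.15). Families and positions of the transposons are not used here.

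Within the polymerase mutants, the higher TE loci were lower in ddm1nrpd1 little more often than all tested TE loci. The higher pseudogenes were so more often than all tested pseudogenes. Of the 470 TE loci that separated as higher, 160 (34%) were lower in ddm1nrpd1 than in ddm1nrpe1 and 29 (6.17%) were higher, at an adjusted p under 0.05. Over all tested loci 19.7% were lower in ddm1nrpd1 and 16.4% higher, and over all tested TE loci 30.2% and 15.3%. Of the 442 pseudogenes, 208 (47.1%) were lower in ddm1nrpd1 and 36 (8.14%) higher, beside 31.2% and 15.5% of all tested pseudogenes. Within the intact side, 74 of the 470 TE loci were lower in ddm1cmt2 than in ddm1 and 12 were higher. These were 15.7% and 2.55% of the 470. Over all tested TE loci 22.5% were lower and 8.2% higher in that comparison, and over all loci 17.7% and 18.4%.

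The TE and pseudogene loci that separated as lower, 118 and 126 in number, include some with wide margins. AT2G07080, a pseudogene, was at 19, 35.7 and 54.5 CPM in the intact lines and 0.441, 0.741 and 0.877 in the polymerase mutants (-5.54 ± 0.14, adjusted p = 4.7e-14). It was also lower in ddm1cmt2 than in ddm1 (-1.05, adjusted p = 2.9e-05). The pseudogene AT2G07783 was at 6.88, 11.4 and 12.1 CPM against 0.259, 0.343 and 0.532 (-4.74 ± 0.20). The pseudogene AT5G24065 had 0.908 to 3.37 CPM against 0 to 0.162, with no read in 4 of the 6 mutant libraries, and the TE locus AT3TE47880 had 0.913 to 1.61 CPM against 0 to 0.0649, with reads in 1 of 6. AT1TE43430 had 0.639 to 2.5 CPM against 0 to 0.165. No fold is given for the last 3, since so few reads back the lower side.

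Other TE loci fell by less or in unequal steps. AT3TE59155 was at 10.6, 12.3 and 14.6 CPM in the intact lines and 3.05, 3.8 and 5.11 in the mutants (-1.70 ± 0.13), and AT3TE54735 at 36.5, 42.5 and 48.4 against 13, 17.2 and 18.8 (-1.33 ± 0.10). AT5TE71590 had 4.95 to 7.58 CPM in the intact lines, 1.83 to 1.93 in ddm1nrpe1 and no read in ddm1nrpd1, which was at least 121-fold lower than the intact mean (floor of 3 counts over the 3 libraries). Of the loci on its chromosome its profile came nearest to XTH13 (AT5G57540), a wall enzyme gene of root hairs, within 0.783 log2 units in every library. AT4TE15825 went the opposite way within the mutants, with 144 to 259 CPM in the intact lines, 68.5, 111 and 127 in ddm1nrpd1, and 0.0592, 0 and 0.162 in ddm1nrpe1.

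ROS1 (AT2G36490) separated by the widest margin among lower nuclear genes. It encodes the DNA glycosylase that removes methylated cytosines, and its transcript is known to depend on RdDM. It had 31.1, 40 and 46.3 CPM in the intact lines and 1.36, 2.48 and 3.37 in the polymerase mutants, a log2 fold change of -3.99 ± 0.16 (adjusted p = 4.5e-11), with 8.91-fold between the nearest libraries after the prior count. Neither intact genotype differed from the other past the test (-0.22, adjusted p = 0.36), nor did the mutants (0.19, adjusted p = 0.61). The 9 genes listed for active demethylation otherwise moved little: 2 were called higher and 4 lower, beside 29% and 29.6% of all loci, and 2 separated, both lower. The second, IDM1 (AT3G14980), a histone acetyltransferase that guides demethylation, was at 10.1 to 16.8 against 17.4 to 28.4 CPM (-0.69 ± 0.10). The median over the list was -0.24, beside -0.01 over all tested loci.

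Genes of the RdDM machinery went both ways. Of 9 genes of the polymerase IV arm, 2 were called higher and 5 lower (median -0.54), and of 12 of the polymerase V arm 2 and 5 (median -0.17), beside 29% and 29.6% of all loci. A single gene separated in each arm, and NRPD1 and NRPE1 are among the higher calls. The summed level of the polymerase IV arm was 30 to 33 CPM in ddm1nrpe1, 47.5 to 52.2 in ddm1nrpd1 and 42.5 to 53.4 in the intact lines. This sum includes NRPD1, which was highest in ddm1nrpd1. It therefore does not show whether the other members kept the intact level there. RDR2 (AT4G11130), the RNA polymerase that makes polymerase IV transcripts double-stranded, separated at 4.58, 5.4 and 6.31 CPM against 7.79, 9.35 and 10.5 (-0.75 ± 0.12, adjusted p = 5.4e-05). NRPD2 (AT3G23780), the second subunit shared by both polymerases, separated at 13.4 to 20.8 against 22.3 to 27.7 CPM (-0.51 ± 0.11). CLSY1 (AT3G42670), a remodeller that brings polymerase IV to chromatin, had 6.46 to 11.6 CPM in the intact lines, 5.76 to 6.75 in ddm1nrpd1 and 2.42 to 3.56 in ddm1nrpe1 (-1.08 ± 0.13, adjusted p = 3.7e-06), so the sides overlapped. DCL3 (AT3G43920), the Dicer of the pathway, also overlapped, at 3.13 to 6.98 against 6.75 to 9.71 (-0.65 ± 0.12).

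Among 11 genes that maintain DNA and H3K9 methylation, 2 were called higher and 5 lower, beside 29% and 29.6% of all loci, and 3 separated, beside 18.4%. SUVH6 (AT2G22740), a histone H3K9 methyltransferase, was lower (-0.60 ± 0.07, adjusted p = 3.7e-06), as was CMT2. KYP (AT5G13960), another such methyltransferase, was higher, at 10.8 to 12.8 against 7.36 to 9.66 CPM (0.44 ± 0.09). Of 11 genes of post-transcriptional silencing, 2 were called higher and 3 lower, which is no more than the share of all loci. AGO2 (AT1G31280), an Argonaute of this list, separated as higher at 22.6, 26.1 and 30.9 against 11.3, 13.9 and 21 CPM (0.82 ± 0.10).

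Single genes known to be controlled by DNA methylation split. Of the 10 tested, 4 were called higher and 2 lower, beside 29% and 29.6% of all loci. SDC, RMG1 and CACTA1 separated, 3 of 10 beside 18.4% of all loci. RMG1 (AT4G11170), an immune receptor gene, had 2.46, 3.88 and 5.8 CPM in the polymerase mutants against 0, 0.347 and 1.64 (3.42 ± 0.45, or 4.07 without ddm1 replicate 1). The transposon gene CACTA1 (AT2G12210) was lower in the mutants, and each genotype stood at its own level. It had 147, 202 and 127 CPM in ddm1 and 343, 421 and 404 in ddm1cmt2, but 24.1, 17.4 and 18.4 in ddm1nrpd1 and 65.9, 56.6 and 80.6 in ddm1nrpe1 (-2.76 ± 0.13, adjusted p = 8.0e-10).

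Plastid loci made the largest class-wide difference, all of it downwards. Of 110 tested plastid loci, 98 were called lower and none higher, and 96 (87.3%) separated as lower. Plastid transcripts took 0.227% ± 0.0692 of counts in the polymerase mutants, from 0.124% to 0.309%, and 1.31% ± 0.502 in the intact lines, from 0.779% to 1.97% (SD, n = 6, exact permutation p = 0.0022, the smallest that 6 against 6 libraries allow). Within the intact side the share was 1.57% to 1.97% in ddm1 and 0.779% to 0.924% in ddm1cmt2. The permutation treats the 6 libraries of a side as exchangeable, though they come from 2 genotypes. Its p therefore does not measure replication of polymerase loss. The libraries were made from polyA RNA, which holds only a remainder of plastid transcripts, and whether that selection differed between libraries was not tested. These loci were not matched to the RefSeq table and are given by identifier.

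The 96 separating plastid loci were near 0 in most cases. ATCG00220 had 333, 511 and 616 CPM in the intact lines and 0.496, 0.884 and 1.17 in the polymerase mutants (-9.08 ± 0.15, adjusted p = 3.1e-16), and its nearest libraries were 256-fold apart after the prior count. ATCG01130 had 415, 742 and 1041 CPM against 0.352, 0.544 and 1.36 (-10.05 ± 0.24), and ATCG00430 had 173, 228 and 322 against 0.519, 0.707 and 0.877 (-8.33 ± 0.14). The locus with the highest intact level, ATCG00480, kept 12.7 to 17.9 CPM of 1438 to 4232 (-7.25 ± 0.12). The median log2 fold change of the 96 was -3.59, and in 63 the mean of the mutants was under 1 CPM. Summed over the 96, the mutants held 161 ± 16.2 CPM, alike in ddm1nrpd1 (148 to 169) and ddm1nrpe1 (136 to 180). The intact lines were apart: 12400 to 16000 in ddm1 and 6750 to 8590 in ddm1cmt2. Of the 96, 65 were called lower in ddm1cmt2 than in ddm1, beside 17.7% of all loci.

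Not all plastid loci separated. The other 14 summed to 1120 to 2820 CPM in the mutants and 1520 to 3270 in the intact lines. Still, 2 of the 14 were called lower, ATCG00520 (-1.45) and ATCG00590 (-2.17), and 12 were not called. Of these 14, 11 loci are all of the tested loci numbered ATCG00920 to ATCG00970 and ATCG01170 to ATCG01210, and none of these 11 was called in either direction (log2 fold changes -0.31 to 0.84). ATCG00950 among them had 308, 634 and 803 CPM in the mutants and 559, 686 and 1061 in the intact lines (-0.30 ± 0.21, adjusted p = 0.24).

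**Figure D3:**
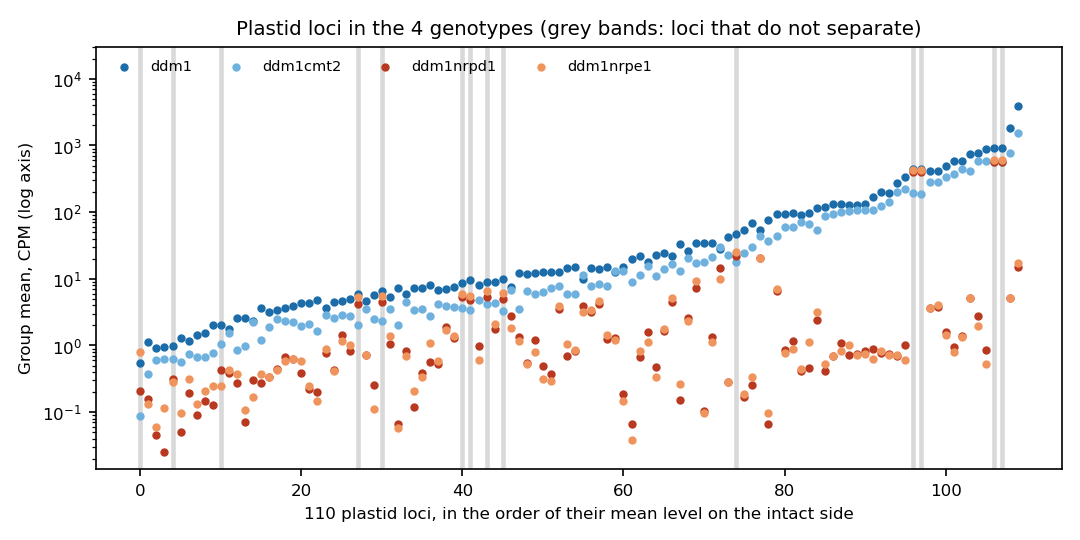
Group mean CPM (log axis) of the 110 tested plastid loci in the 4 genotypes, in order of their mean on the intact side. Both polymerase mutants (red, orange) lie under both intact genotypes (blue) at the 96 separating loci, while the libraries of the 2 sides overlap at the 14 loci in grey bands.

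Mitochondrial loci showed less: of 46 tested, 2 were called higher and 18 lower, and 8 (17.4%) separated, all lower. Their share of counts was 0.0197% ± 0.00427 against 0.0487% ± 0.00805 (n = 6, exact permutation p = 0.0022, with the same limit as for plastid loci). Nuclear genes for plastid transcription differed between the polymerase mutants. Of 14, which include sigma factors and the phage-type polymerases, 6 were called higher and 5 lower, beside 29% and 29.6% of all loci. The median was -0.14, and 1 separated. In 10 of the 11 called, ddm1nrpd1 and ddm1nrpe1 differed past the test. Over all loci, 16.4% were higher and 19.7% lower in ddm1nrpd1 than in ddm1nrpe1. Their summed level was 644 to 804 CPM in ddm1nrpe1, 990 to 1080 in ddm1nrpd1 and 834 to 1030 in the intact lines. Of 16 nuclear photosynthesis genes 14 were called lower, but 1 separated and the median was -0.40. Of the 14, 10 were also higher in ddm1cmt2 than in ddm1, beside 18.4% of all loci. LHCB5 (AT4G10340), a minor antenna protein of photosystem II, had 2902 to 3367 CPM in ddm1 and 5352 to 7014 in ddm1cmt2, against 2094 to 3157 in the polymerase mutants (-0.88 ± 0.11).

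Root hair genes fell in both polymerase mutants, further in ddm1nrpd1 than in ddm1nrpe1. Of 21 tested, 19 were called lower and 1 higher, beside 29.6% and 29% of all loci. Of the 21, 15 separated, all lower, beside 8.3% of all loci. The median was -4.08 (-3.93 with genes at 0 set to their bound), beside -0.01 over all loci. It averages a smaller fall in ddm1nrpe1 and a larger one in ddm1nrpd1, so it describes neither. In these bulk samples, fewer root hair cells and less RNA per cell cannot be told apart. The summed level of the list was 318 to 509 CPM in the intact lines, 181 to 220 in ddm1nrpe1 and 65.4 to 76.4 in ddm1nrpd1. EXPA7 (AT1G12560), a wall-loosening expansin, had 7.61 to 12.6 CPM in the intact lines, 4.73, 5.18 and 4.85 in ddm1nrpe1, and 0, 0.0381 and 0.0649 in ddm1nrpd1. COBL9 (AT5G49270), a membrane-anchored protein of tip growth, and LRX1 (AT1G12040), a leucine-rich repeat extensin of the wall, had the same order. COBL9 had 5.66 to 10.5 CPM in the intact lines, 2.84 to 2.87 in ddm1nrpe1 and 0 to 0.13 in ddm1nrpd1. With sides in place of genotypes in the model, log2 fold changes were smaller in size. They were -2.01 for EXPA7 (call lost), -2.45 for COBL9 and -2.56 for LRX1, beside -4.43, -4.08 and -5.36.

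Of the 15, 5 genes (EXT11, PRP1, RHS12, XTH12 and XTH13) had no read in any ddm1nrpd1 library. EXT11 (AT5G49080, an extensin gene that RefSeq lists as a pseudogene) had 18.17 to 30.3 CPM in the intact lines and 6.04 to 6.78 in ddm1nrpe1, and PRP1 (AT1G54970), a proline-rich wall protein, 14.8 to 31.7 and 5.55 to 6.39. Against the floor of 3 counts, ddm1nrpd1 was at least 452-fold lower than the intact mean for EXT11 and at least 412-fold lower for PRP1. In 13 of the 15 separating genes ddm1nrpd1 was lower than ddm1nrpe1 at an adjusted p under 0.05, beside 19.7% of all loci. In none did ddm1cmt2 differ from ddm1, where 18.4% of all loci were higher and 17.7% lower. Regulators above these genes moved less. RHD6 (AT1G66470), the bHLH factor that starts hair growth, was at 0.772, 1.68 and 1.95 against 2.07, 2.65 and 3.51 CPM (-0.83 ± 0.20). RSL4 (AT1G27740), a later bHLH factor, was at 0.324, 0.821 and 1.42 against 2.4, 3.31 and 5.11 (-2.17 ± 0.23). GL2 (AT1G79840), which marks the hairless files, overlapped at 44.1 to 58.9 against 54.5 to 68.8 (-0.32 ± 0.08). These 3 were chosen after their values were seen.

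**Figure D4:**
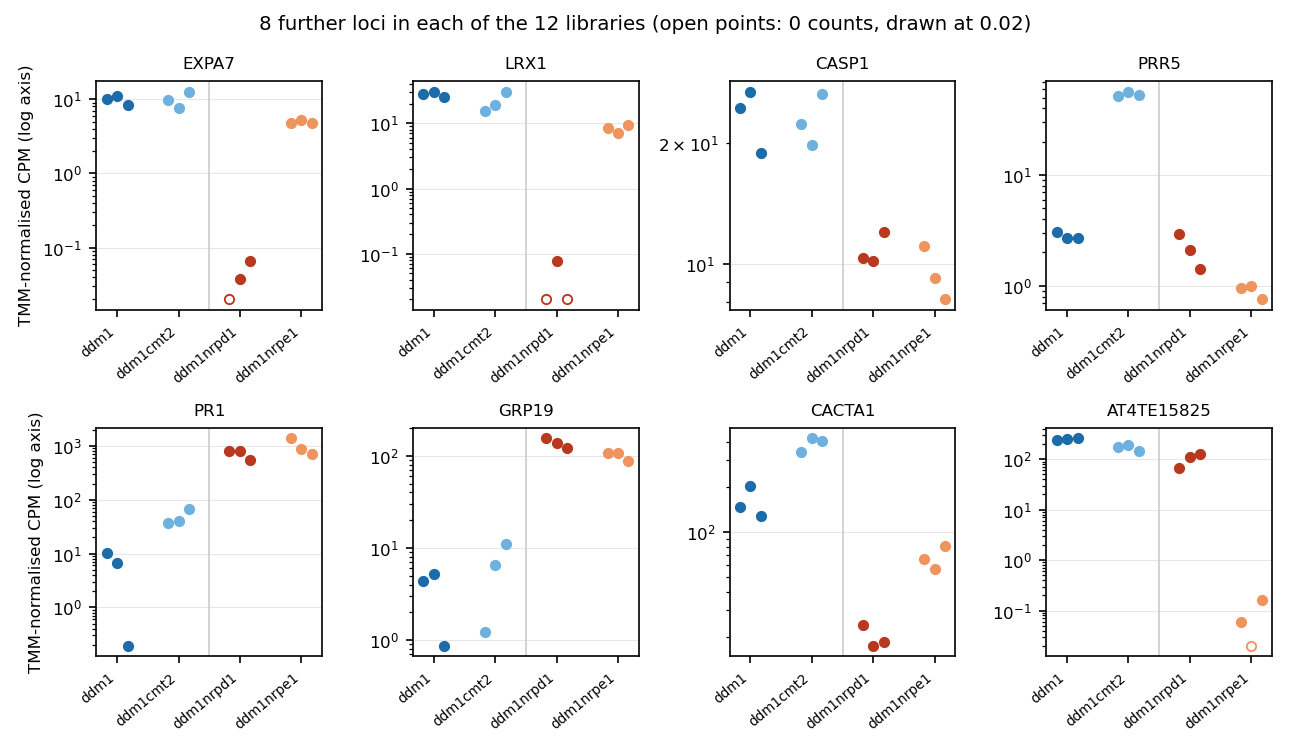
TMM-normalised CPM (log axes with their own ranges) of 8 loci in each library, by genotype, with polymerase-intact genotypes in blue and polymerase mutants in red and orange, with open points at 0.02 for 0 counts. EXPA7 and LRX1 fall to nearly nothing in ddm1nrpd1 and partly in ddm1nrpe1, AT4TE15825 does the reverse, CASP1 is lower and GRP19 and PR1 are higher in both mutants, CACTA1 has a level of its own in each genotype, and PRR5 stands high in ddm1cmt2 alone.

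Other root cell types moved less. Over all loci, 29% were called higher and 29.6% lower, and 18.4% separated. Between the mutants, 16.4% of all loci were higher and 19.7% lower in ddm1nrpd1 than in ddm1nrpe1. All 8 Casparian strip genes were called lower and 7 separated (median -1.01), and ddm1nrpd1 differed from ddm1nrpe1 past the test in none of the 8. CASP1 (AT2G36100), a scaffold protein of the endodermal barrier, was at 8.14, 10.2 and 12 against 18.9, 23.4 and 26.9 CPM (-1.19 ± 0.11). ESB1 (AT2G28670), a dirigent protein of the same barrier, was at 12.8, 14.4 and 21.5 against 33.7, 38.4 and 44.8 (-1.31 ± 0.12). Among 8 genes of root stem cells and uptake, 1 was called higher and 3 lower, and TIP2-3 (AT5G47450), a vacuolar aquaporin, separated at 5.55 to 10.7 against 15.1 to 33.4 CPM (-1.41 ± 0.12). Of 11 nitrate genes, 1 was called higher and 2 lower, and none separated. The root share of the harvested seedlings is not given, and its part in these values was not tested.

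The lower nuclear genes with the next widest margins code for proteins of several kinds. CLE5 (AT2G31083), a small peptide of the CLAVATA3 family, had 0.27, 0.483 and 0.649 CPM against 2.56, 3.51 and 4.45 (-2.92 ± 0.23). AGP30 (AT2G33790), an arabinogalactan protein known from roots, had 1.13, 1.96 and 2.88 against 8.09, 11 and 12 (-2.54 ± 0.14). AT14A (AT3G28300) had 1.01 to 1.62 against 4.42 to 12.2 (-2.44 ± 0.23), and RefSeq gives this symbol to another locus too, so reads may be split between copies. AT1G57620, with the synonym CYTOPLASMIC BODIES in RefSeq, had 1.59, 2.1 and 2.37 CPM against 12.3, 14.8 and 17.8 (-2.88 ± 0.12, adjusted p = 1.3e-11), 4.97-fold between the nearest libraries after the prior count. ZW9 (AT1G58270) was at 9.69 to 21.9 against 56.7 to 105 (-2.38 ± 0.14), and AT3G53980 at 8.99 to 12.4 against 34 to 50 (-2.02 ± 0.10). AT4G08410 followed the root hair order, with 20.8 to 40 CPM in the intact lines, 7.33 to 8.03 in ddm1nrpe1 and 0, 0.114 and 0 in ddm1nrpd1.

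Defence and senescence genes were called higher more often than lower. Of 17 salicylic acid defence genes, 9 were called higher, beside 29% of all loci, and none lower (median 1.21). Only 2 of the 17 separated, 11.8% beside 10.1% of all loci. PR1 (AT2G14610), the standard marker of this pathway, had 548, 816 and 1381 CPM in the polymerase mutants and 0.192, 23.5 and 68.7 in the intact lines (5.68 ± 0.49, adjusted p = 1.2e-05). The intact side was itself spread, with ddm1cmt2 above ddm1 (3.12, adjusted p = 0.0076). PR5 (AT1G75040), a thaumatin-like protein, separated with almost no margin, at 29.4 to 87.8 against 2.21 to 28.9 CPM (2.02 ± 0.27). PR2 (AT3G57260), a glucanase, at 40.5 to 136 against 0.577 to 48.6, and SAG101 (AT5G14930), a partner of EDS1, at 13.4 to 28.2 against 6.26 to 15.9, were called higher (3.18 ± 0.51 and 1.14 ± 0.13) with overlapping sides. In 7 of the 9 called genes ddm1cmt2 was also higher than ddm1, beside 18.4% of all loci. CRK38 (AT4G04510), a cysteine-rich receptor kinase, had 1.04 to 3.85 CPM in the mutants, 0.0608 to 0.822 in ddm1cmt2 and no read in ddm1.

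Of 11 leaf senescence genes, 10 were called higher and 1 lower, beside 29% and 29.6% of all loci. Of the 11, 5 separated as higher, beside 10.1% of all loci, the largest number in any of the 24 lists. The summed level was 823 to 997 CPM in ddm1nrpe1, but 547 to 627 in ddm1nrpd1. It was 555 to 781 in ddm1 and 381 to 461 in ddm1cmt2. In 4 of the 11 called genes the polymerase mutants differed past the test, where 16.4% of all loci were higher and 19.7% lower in ddm1nrpd1. NAP (AT1G69490), a NAC factor that promotes senescence, was at 14.5, 22.2 and 34.7 against 3.56, 6.69 and 9.13 CPM (1.96 ± 0.27, adjusted p = 0.00012). SAG29 (AT5G13170), a sugar transporter, was at 12.1 to 27.7 against 1.43 to 12 (2.18 ± 0.20), and SAG13 (AT2G29350), a dehydrogenase, at 38.4 to 93.3 against 0.192 to 28.6 (3.12 ± 0.51). In 5 of the 11 called genes ddm1cmt2 was also above ddm1, beside 18.4% of all loci. Of 13 heat genes 9 were called higher and 2 lower, beside 29% and 29.6% of all loci. Only 2 separated, 1 each way (7.69%), beside 10.1% and 8.3% of all loci. In 7 of the 11 called heat genes ddm1cmt2 was also above ddm1, beside the same 18.4%. HSFA2 (AT2G26150), a heat stress factor, was at 2.21, 4.61 and 11.6 against 0.192, 0.468 and 1.19 CPM (3.52 ± 0.31), and higher in ddm1nrpd1 than in ddm1nrpe1 (1.31, adjusted p = 0.0019). BAG6 (AT2G46240), a co-chaperone, was lower at 2.66 to 4.37 against 4.71 to 14 (-1.15 ± 0.12), while MBF1C (AT3G24500), a co-activator of the heat response, overlapped (1.40 ± 0.18).

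Among clock and cold genes single genotypes often stood apart. Of 19 clock genes, 6 were called higher and 9 lower, beside 29% and 29.6% of all loci. Of the 19, 5 separated (all lower, beside 8.3% of all loci). In 12 of the 15 called ddm1cmt2 differed from ddm1, where 18.4% of all loci were higher and 17.7% lower. PRR5 (AT5G24470), a pseudo-response regulator, had 51.9, 56.5 and 52.6 CPM in ddm1cmt2 and 0.755 to 3.08 in all other libraries. LHY (AT1G01060), a morning factor, had 22.1 to 27.2 CPM in ddm1cmt2, 195 to 229 in ddm1nrpe1, 477 to 550 in ddm1nrpd1 and 595 to 714 in ddm1, so its sides overlap. GI (AT1G22770) overlapped too, at 14.2 to 78.5 against 0.865 to 138, and its sign turned with sides in place of genotypes in the model. Separating members were the evening complex genes ELF3 (AT2G25930), ELF4 (AT2G40080) and LUX (AT3G46640), with TOC1 (AT5G61380) and LKP2. TOC1 was at 18.5, 19.5 and 21.2 against 28.4, 32.8 and 33.8 CPM (-0.72 ± 0.07), LUX at 8.84 to 10.7 against 12.7 to 17.4 (-0.63 ± 0.09), ELF3 at 18.9 to 30 against 32.4 to 70.9 (-1.02 ± 0.08) and ELF4 at 1.4 to 3.52 against 3.84 to 11.6 (-1.54 ± 0.13). Clock transcripts change through the day, and the part of harvest time in these values was not tested. TOC1, LUX, GI and the senescence gene SAG13 were chosen after their values were seen. CDF1 (AT5G62430) and CDF3 (AT3G47500), repressors in the photoperiod pathway, separated as lower (-1.52 ± 0.10 and -1.09 ± 0.10), in a list of 8 with 2 called higher and 4 lower.

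Cold, drought and abscisic acid genes were called lower in 11 of 13 cases and higher in none, beside 29.6% and 29% of all loci. As lower, 4 separated, beside 8.3% of all loci (median -1.35). In 10 of the 11, ddm1cmt2 stood above ddm1, beside 18.4% of all loci. The summed level was 1380 to 1520 CPM in ddm1cmt2, 310 to 368 in ddm1 and 307 to 463 in the polymerase mutants. The sum in the mutants was thus not under that of ddm1. COR15B (AT2G42530), a chloroplast stress protein, had 44.4, 49.1 and 28.8 CPM in ddm1cmt2, 1.63 to 1.76 in ddm1 and 0.496 to 1.1 in the polymerase mutants. CBF3 (AT4G25480), a cold response factor, was at 0 to 0.529 against 0.962 to 5.65 CPM (-4.71 ± 0.45, or -5.42 without ddm1nrpd1 replicate 1). KIN2 (AT5G15970), a cold-induced gene, had 200 to 244 CPM in ddm1cmt2 and 40.2 to 54.1 in every other library.

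The remaining lists held at most 2 separating genes. Over all loci, 29% were called higher and 29.6% lower, and 10.1% and 8.3% separated. In ddm1cmt2 against ddm1, 18.4% of all loci were higher and 17.7% lower. In ddm1nrpd1 against ddm1nrpe1, these shares were 16.4% and 19.7%. F3H (AT3G51240), an enzyme of flavonol synthesis, was at 59.4, 116 and 202 against 22.5, 35.2 and 55 CPM (1.66 ± 0.09), higher in ddm1nrpd1 than in ddm1nrpe1 (1.36, adjusted p = 6.4e-07). It was 1 of 13 flavonoid genes, of which 6 were called higher and 1 lower. In 6 of these 7 ddm1cmt2 was above ddm1, and in all 7 the polymerase mutants differed. CHI (AT3G55120), which acts before it, overlapped (1.23 ± 0.09). BCAT4 (AT3G19710), the first enzyme of aliphatic glucosinolate synthesis, was at 107 to 164 against 45.7 to 86.8 (0.95 ± 0.12), with 8 of 14 list members called higher and 1 lower. Of these 9, 7 were also higher in ddm1cmt2 than in ddm1 and 7 differed between the polymerase mutants. The summed level was 818 to 928 CPM in ddm1nrpe1, under the 972 to 1030 of ddm1cmt2. VSP2 (AT5G24770), a jasmonate-induced storage protein, fell from 14.4 to 42.8 CPM to 2.54 to 7.85 (-2.28 ± 0.18), while of 15 jasmonate and wound genes 2 were called higher and 4 lower. The DNA damage genes GMI1 (AT5G24280) and XRI1 (AT5G48720) separated as higher (1.22 ± 0.16 and 0.42 ± 0.11), with 3 of 17 called each way. Of 18 cell division genes 2 were called higher and 5 lower, and none separated. All 7 called differed between the polymerase mutants, and the summed level was 359 to 393 CPM in ddm1nrpd1, 227 to 285 in ddm1nrpe1 and 247 to 351 in the intact lines.

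**Figure D5:**
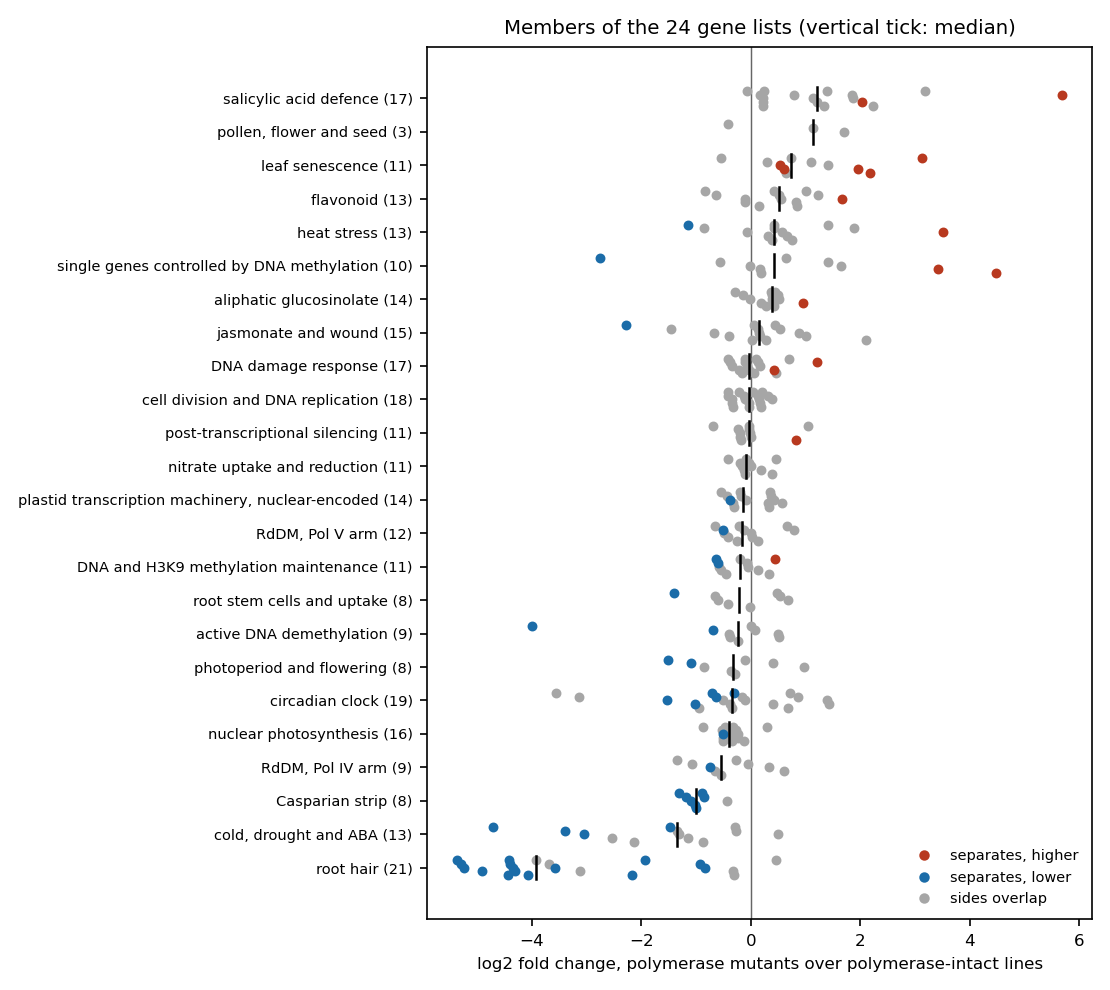
Log2 fold change, polymerase mutants over polymerase-intact lines, of each tested member of the 24 gene lists (number tested in brackets), in order of the list medians (black ticks). Red and blue points separate as higher and lower, grey points overlap, and genes without a read in a genotype are drawn, and enter the median, at their bound. Root hair, cold and Casparian strip genes lie to the left with 15, 4 and 7 separating as lower, and senescence genes to the right with 5 separating as higher. Over all loci, 8.3% separated as lower and 10.1% as higher. Summed cold genes were high in ddm1cmt2 alone (1380 to 1520 CPM), beside 310 to 368 in ddm1 and 307 to 463 in the mutants.

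At the threshold itself, separation turns on single libraries. Just inside it, RBOHD (AT5G47910), an NADPH oxidase, had 68.3 to 106 CPM in the mutants against 47.6 to 68.3, and AT3G09570 had 24.4 to 29.3 against 29.3 to 35.2. Just outside, MEE49 (AT4G01560) had 32.4 to 49.3 against 19.6 to 32.4 and AT2G07360 64 to 76.6 against 76.6 to 97.4. Loci with margins this thin are in the counts above and none is among those named by their margin.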

How the data were processed

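PolyA RNA-seq of 12 libraries, 3 in each of 4 groups, was analysed. The deposited table holds whole-number read counts per locus, with transposons and organelle loci, made by the authors. The submitters' processing notes name TAIR10, TopHat, HTSeq and edgeR among other tools, without roles or versions. The annotation, the strand setting and the handling of multi-mapped reads were not stated there. The authors also deposited CPM columns, per the file headers, whose values are counts over the column total; they were not used for tests. CPM printed here was computed from the deposited counts with TMM factors.

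Loci were filtered with filterByExpr and fitted with edgeR 4.0.16 (R 4.3.3) as 4 group means, quasi-likelihood with robust dispersion and 8 residual degrees of freedom. The mean of both polymerase mutants was tested against the mean of both intact lines, two-sided, with Benjamini-Hochberg adjustment over 24839 loci and a threshold of 0.05. Every adjusted p comes from this fit, within-side differences included, unless another model is named, and ± after a log2 fold change is the SE (fold change over the square root of F). A margin is the distance between the nearest libraries of both sides on log2 CPM with a prior count of 2. Shares were compared by exact permutation of libraries. Code was tested on simulated counts.

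Named loci are the mutated genes; loci called and separating with a mean of at least 1 CPM on the higher side, by widest margin within class; up to 4 members per list by adjusted p; loci at the threshold; and those that differ most within a side. The members and the 24 gene lists (325 loci) were chosen with earlier results of these data known. RefSeq symbols matched 22869 of 22968 gene-form loci. Alternatives covered scaling, filter, tool (DESeq2 1.42.0, limma-voom 3.58.1), design, replicate block, depth and left-out libraries. Permutation p-values cover 924 splits, and counts carry counting error besides the spread between libraries. Replicates with the same number did not deviate together in a steady way (correlations of -0.306 to 0.22), and the main fit uses no pairing.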

Additional observations from a re-analysis of the deposited data

Results flagged for a closer look

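A library was singled out where it lay far from the other 5 of its side of 6 by Dixon's ratio. Of 206 sides examined 7 met this, and chance flags about 1 in 20 groups. The ddm1nrpd1 libraries gave 3 of them: GL2 at 58.9 CPM in replicate 1 with the next at 47.7, CBF3 at 0.529 in replicate 1 with the next at 0.13, and AT3TE47880 at 0.0649 in replicate 3 with all others at 0. In ddm1nrpe1, AT3TE54735 had 13 CPM in replicate 1 with the next at 17, and AT5G24065 had 0.162 in replicate 3 with the next at 0.0587. In ddm1cmt2 replicate 3, PR2 stood at 48.6 CPM with the next at 15.4, and XRI1 at 5.39 with the next at 7.47.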

How the results depend on the processing

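With sides of 6 libraries in place of 4 group means in the model, 4717 loci were called higher and 4493 lower; 9201 of the 14563 calls remained, none in the opposite direction, and the calls of NRPD1, NRPE1, EXPA7, LHY and AT4TE15825 were among those lost. GI turned to -0.60 there (adjusted p = 0.675 by edgeR). Asking for a 2-fold change left 2110 and 1324 calls, and a margin of 1 log2 unit left 448 and 109 separating loci. The transposon share difference was -0.421 percentage points between ddm1nrpd1 and ddm1 and 1.7 between ddm1nrpe1 and ddm1cmt2, and 0.456 to 0.841 with 1 library left out, with an exact permutation p of 0.0498 without ddm1 replicate 3. The pseudogene share difference was -0.0896 and 2.44 in the same pairs and 0.967 to 1.41 with 1 library left out. The cause of these shifts was not tested. Leaving out 1 library gave 6615 to 7285 higher and 6744 to 7417 lower calls. Over 146 named loci, 3009 of 3061 alternative values kept their direction and side of the threshold, 51 lost the call and 1 turned. With replicate number as a block, 7082 loci were called higher and 7174 lower. Deviations of same-numbered libraries correlated at -0.306 to 0.22, above 0.1 in 3 of 18 pairs. These values do not settle whether the number pairs samples. Depth limits the lowest loci: those with few reads on the lower side are given as levels.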
